A study of Arabidopsis with 12 samples.

Results

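The thalianol and marneral gene clusters are 2 groups of neighbouring genes on chromosome 5 of *Arabidopsis thaliana*, whose products make root triterpenes. The 8 genes were chosen by their gene identifiers, 5 for the thalianol cluster and 3 for the marneral cluster, with earlier results of the same table in view. All 8 were found among the 33559 genes of the deposited expression table, and all 8 are among the 20276 genes that reached 1 FPKM in at least 1 group. FPKM is a transcript level scaled for gene length and sequencing depth, so levels can be compared between genes. The table itself names no unit, and FPKM was inferred from its values and its sheet label. The samples were whole 14-day-old seedlings of *aph-1* and of the wild type (Col-0), with or without abscisic acid (ABA), the plant hormone of water stress. ABA was given at 50 μM for 6 h, and the 4 groups are ABA-treated *aph-1*, untreated *aph-1*, the ABA-treated wild type and the untreated wild type. The *aph-1* line (Salk_120974) is a single T-DNA insertion line, with the insertion in the promoter of the tyrosine phosphatase gene *APH*, and a transcript that joins T-DNA to *APH* exons is described for it.

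Plants sometimes keep the genes of a specialised metabolic pathway side by side, and these 2 clusters are among the best studied examples in Arabidopsis. Each starts with an oxidosqualene cyclase, which folds 2,3-oxidosqualene, the precursor that is also used for sterols, into a triterpene skeleton. Cytochrome P450 enzymes and acyltransferases then modify the skeleton. Both clusters are known to be expressed mainly in roots, where thalianol products shape the root microbiota, and both carry the repressive chromatin mark H3K27me3 in tissues where they are silent.

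Each group had 3 libraries, but the deposited table gives 1 FPKM value per group, so there is no replicate error to give and no test, and every difference below is without a replicate check. Read counts are not in the table, and its lowest values above 0 lie under 1e-05 FPKM in all 4 groups and do not step by whole reads, so the depth is unknown. The values of a group summed to between 1027611 and 1119237 FPKM over all genes. *APH* (AT3G44620) was at 86.9 FPKM in ABA-treated *aph-1* and 99.0 FPKM in the ABA-treated wild type, and at 83.6 FPKM in untreated *aph-1* and 95.9 FPKM in the untreated wild type. A whole-gene value cannot separate *APH* transcripts from ones begun in the T-DNA, so it does not check the genotype. The ABA-inducible gene *RD29B* (AT5G52300) was 1857-fold higher with ABA in *aph-1* and 173-fold higher with ABA in the wild type. It was at 1315 FPKM in ABA-treated *aph-1* and 1586 FPKM in the ABA-treated wild type. Without ABA it was at 0.708 FPKM in *aph-1* and 9.19 FPKM in the wild type. The larger fold in *aph-1* thus goes with a lower untreated level, not with a higher level after ABA. Log2 ratios are given with 0.1 FPKM added to each value, and folds without it. The words higher and lower for a count mean at least a 2-fold difference on that log2 scale.

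All 5 thalianol genes were lower after ABA in both genotypes. In untreated seedlings they were well expressed, between 10.3 and 98.2 FPKM in *aph-1* and between 12.0 and 102 FPKM in the wild type. After ABA the cluster's summed level was 42.1 FPKM in *aph-1*, against 237 FPKM in untreated *aph-1*, which is 5.64-fold lower. In the wild type the sum was 19.6 FPKM after ABA, against 265 FPKM without it, which is 13.6-fold lower. ABA-treated *aph-1* therefore stood 2.15-fold above the ABA-treated wild type for the cluster as a whole. The marneral genes did not move together: the synthase gene was higher after ABA, its oxidase gene was lower, and the remaining P450 gene was within 2-fold.

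**Figure D1:**
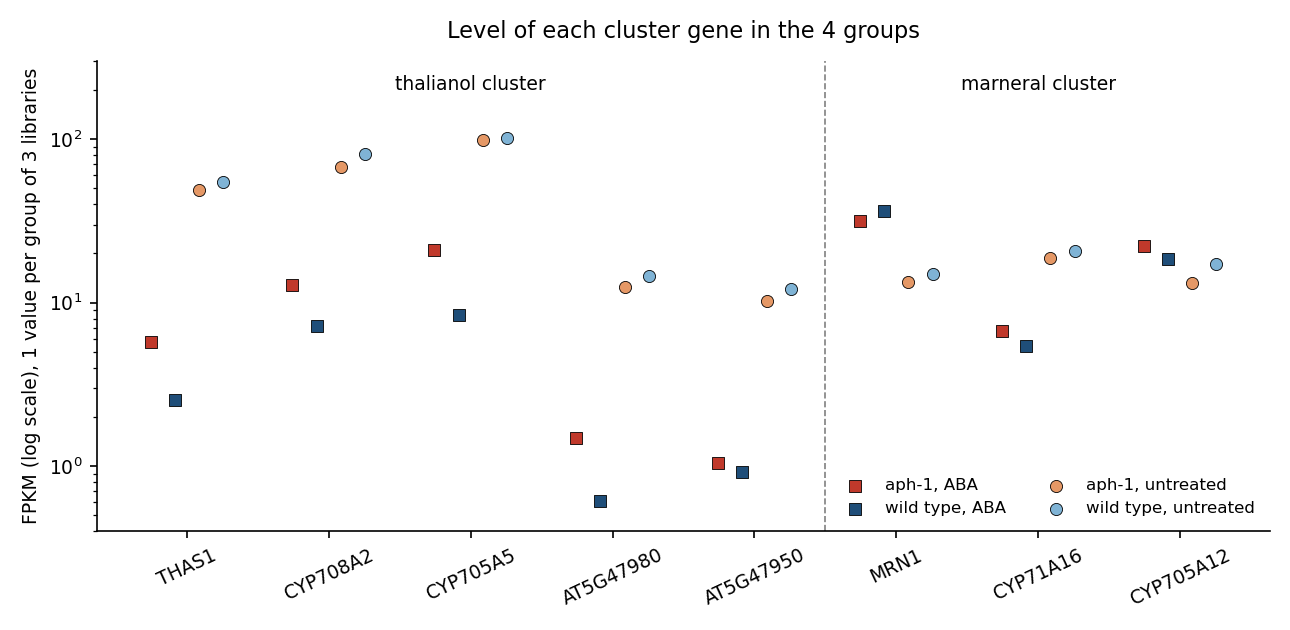
FPKM of the 8 cluster genes on a log axis, 1 point per group of 3 libraries, with ABA-treated groups as squares and untreated groups as circles. All 5 thalianol genes have both squares below both circles, while *MRN1* has both squares above both circles and *CYP705A12* has its 4 points between 13.2 and 22.3 FPKM.

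*THAS1* (AT5G48010) encodes thalianol synthase, the cyclase that makes thalianol. It was at 5.77 FPKM in ABA-treated *aph-1* and 48.6 FPKM in untreated *aph-1*, against 2.53 FPKM in the ABA-treated wild type and 54.9 FPKM in the untreated wild type. Both ABA-treated values lie below both untreated values, at 11.9% of the untreated level in *aph-1* and 4.60% in the wild type. It was 8.42-fold lower with ABA in *aph-1* (log2 ratio −3.05) and 21.7-fold lower in the wild type (log2 ratio −4.39). Counted from the lowest of the 20276 log2 ratios, *THAS1* was at place 188 in *aph-1* and 64 in the wild type.

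*CYP708A2* (AT5G48000) encodes the P450 thalianol hydroxylase. Its level was 12.8 FPKM in ABA-treated *aph-1* and 67.9 FPKM in untreated *aph-1*, against 7.15 FPKM in the ABA-treated wild type and 81.5 FPKM in the untreated wild type. That is 5.29-fold lower with ABA in *aph-1* and 11.4-fold lower with ABA in the wild type. *CYP705A5* (AT5G47990) encodes the desaturase that acts on the hydroxylated product, and it had the highest level of the cluster in all 4 groups. It stood at 20.9 FPKM in ABA-treated *aph-1* and 98.2 FPKM in untreated *aph-1*, against 8.36 FPKM in the ABA-treated wild type and 102 FPKM in the untreated wild type. With ABA it was 4.69-fold lower in *aph-1* and 12.2-fold lower in the wild type. These P450 genes had the smallest fold differences of the cluster in both genotypes.

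AT5G47980 and AT5G47950 encode acyltransferases of the HXXXD (BAHD) type, a family that transfers acyl groups onto alcohols. AT5G47980 was at 1.48 FPKM in ABA-treated *aph-1* and 12.4 FPKM in untreated *aph-1*, against 0.611 FPKM in the ABA-treated wild type and 14.6 FPKM in the untreated wild type. Without the added 0.1 FPKM it had the largest fold difference of the 8 genes in the wild type, 23.8-fold lower with ABA, against 8.38-fold lower with ABA in *aph-1*. For AT5G47950 the levels were 1.04 FPKM in ABA-treated *aph-1* and 10.3 FPKM in untreated *aph-1*, against 0.919 FPKM in the ABA-treated wild type and 12.0 FPKM in the untreated wild type. Among the thalianol genes the 2 genotypes were closest for this one, with 9.87-fold lower levels after ABA in *aph-1* and 13.1-fold lower levels in the wild type. The order of levels within the cluster, *CYP705A5*, *CYP708A2*, *THAS1*, AT5G47980 and AT5G47950 from high to low, was the same in 3 groups, and in the ABA-treated wild type the 2 acyltransferase genes changed places. With 1 value per group it cannot be said which neighbours in this order differ beyond their spread.

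*MRN1* (AT5G42600) encodes marneral synthase, the cyclase of the second cluster. Its level was 31.7 FPKM in ABA-treated *aph-1* and 13.3 FPKM in untreated *aph-1*, and 36.4 FPKM in the ABA-treated wild type and 15.1 FPKM in the untreated wild type. Both ABA-treated groups were above both untreated groups, 2.38-fold in *aph-1* (log2 ratio 1.24) and 2.41-fold in the wild type (log2 ratio 1.27). *MRN1* was the only one of the 8 genes that was at least 2-fold higher after ABA on the scale used here. It did not reach 3-fold in either genotype.

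*CYP71A16* (AT5G42590) encodes marneral oxidase, the P450 that acts on the product of *MRN1*. It was at 6.72 FPKM in ABA-treated *aph-1* and 18.7 FPKM in untreated *aph-1*, against 5.40 FPKM in the ABA-treated wild type and 20.8 FPKM in the untreated wild type. This is 2.79-fold lower with ABA in *aph-1* and 3.85-fold lower with ABA in the wild type. *CYP705A12* (AT5G42580), the other P450 gene of the cluster, was at 22.3 FPKM in ABA-treated *aph-1* and 13.2 FPKM in untreated *aph-1*, against 18.6 FPKM in the ABA-treated wild type and 17.2 FPKM in the untreated wild type. It was 1.70-fold higher with ABA in *aph-1* and 1.08-fold higher with ABA in the wild type, both under 2-fold.

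The level of *MRN1* relative to *CYP71A16* therefore differed widely between treatments. The level ratio of *MRN1* to *CYP71A16* was 4.72 in ABA-treated *aph-1* and 0.712 in untreated *aph-1*, and 6.74 in the ABA-treated wild type against 0.725 in the untreated wild type. *MRN1* made up 52.2% of the cluster's summed level in ABA-treated *aph-1* and 29.5% in untreated *aph-1*, and 60.3% in the ABA-treated wild type against 28.4% in the untreated wild type. The summed level itself was 60.8 FPKM in ABA-treated *aph-1* and 45.3 FPKM in untreated *aph-1*, and 60.4 FPKM in the ABA-treated wild type and 53.0 FPKM in the untreated wild type. Between the 2 cyclases the order turned round. *MRN1* was 5.50 times the level of *THAS1* in ABA-treated *aph-1* and 14.4 times in the ABA-treated wild type, while *THAS1* was 3.64 times the level of *MRN1* in both untreated groups.

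Counted together, 6 of the 8 genes were lower after ABA and 1 was higher, in *aph-1* and in the wild type alike. Of the 20276 genes, 10.8% were lower and 12.0% higher after ABA in *aph-1*, 22.8% in all, and 13.0% were lower and 11.8% higher in the wild type, 24.8% in all. The median log2 ratio over the 8 genes was −2.31 in *aph-1* and −3.53 in the wild type, beside medians over all genes of −0.02 in *aph-1* and −0.01 in the wild type. With ratios centred on the median of the root markers described below, the split in *aph-1* was 5 lower and 2 higher, since *CYP71A16* was then at −0.95 and *CYP705A12* at 1.27, while the split in the wild type was still 6 lower and 1 higher. At a 3-fold threshold 5 were lower in *aph-1* and 6 in the wild type, with none higher. As the genes were chosen with these values known, the counts describe them and carry no test.

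**Figure D2:**
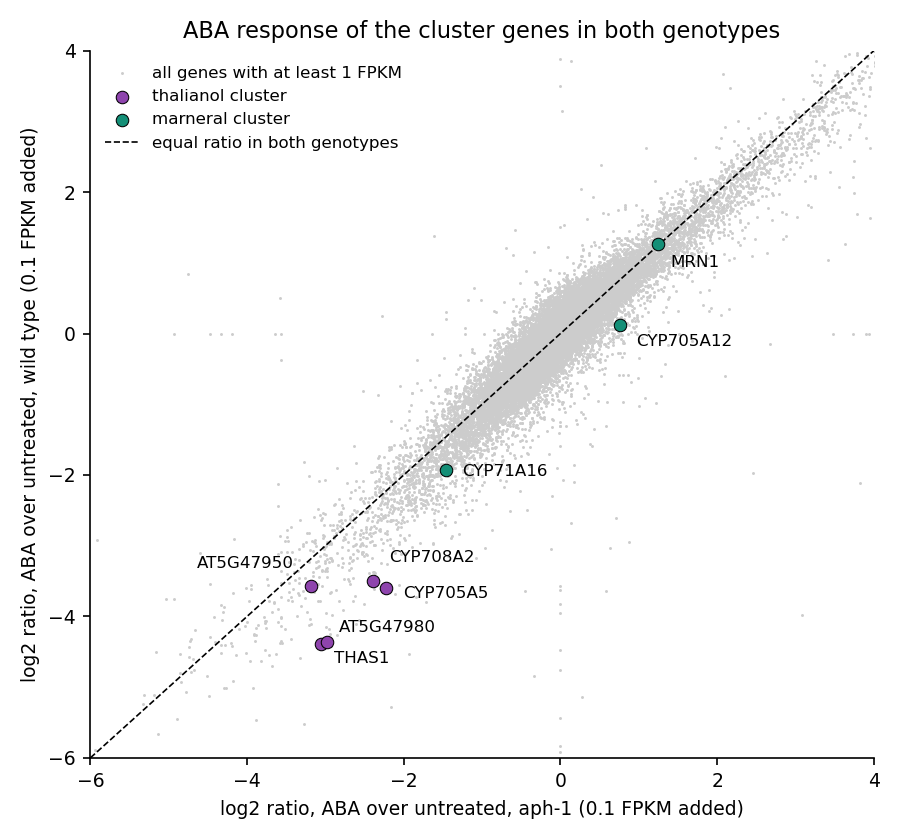
Log2 ratio of ABA-treated to untreated seedlings in *aph-1* (x axis) against the same ratio in the wild type (y axis), with 0.1 FPKM added. Grey points are the 20276 genes, of which 339 lie outside the axes. The 5 thalianol genes lie between −3.18 and −2.22 in *aph-1* and between −4.39 and −3.49 in the wild type, below the dashed line of equal ratios.

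Without ABA the genotypes were close for every member. The untreated *aph-1* level was between 76.8% (*CYP705A12*) and 96.0% (*CYP705A5*) of the untreated wild-type level, so all 8 were below the wild type by less than 2-fold. No member was called at 2-fold, where 0.227% of all genes were higher and 1.08% lower in untreated *aph-1*, 1.30% in all. The median log2 ratio was −0.20 over the 8 genes and −0.05 over all genes. The thalianol sum was 237 FPKM in untreated *aph-1* and 265 FPKM in the untreated wild type.

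With ABA, 4 of the 5 thalianol genes were 1.79-fold to 2.51-fold higher in *aph-1* than they were in the wild type. The fold was 2.51 for *CYP705A5*, 2.42 for AT5G47980, 2.28 for *THAS1* and 1.79 for *CYP708A2*. AT5G47950 was the exception in its cluster, at 1.13-fold. Both acyltransferase genes were low with ABA, so their folds rest on small values. AT5G47950 was at 1.04 FPKM in *aph-1* and 0.919 FPKM in the wild type. AT5G47980 was at 1.48 FPKM in *aph-1* and 0.611 FPKM in the wild type. On the log2 scale 3 of the 8 members passed 2-fold, all higher in ABA-treated *aph-1* (*CYP705A5* 1.31, *THAS1* 1.16 and AT5G47980 1.15), and none was lower. Of all genes, 0.523% were higher and 0.355% lower in ABA-treated *aph-1*, 0.878% in all. Counted from the highest of the 20276 log2 ratios, *CYP705A5* was at place 61, *THAS1* at 78, AT5G47980 at 79 and *CYP708A2* at 155, whereas AT5G47950 was at 3487. The marneral genes stayed closer, with *MRN1* at 0.872 times its wild-type level, *CYP71A16* at 1.24 times and *CYP705A12* at 1.20 times. With 1 FPKM added in place of 0.1, or with ratios centred on the root markers described below, 1 member in place of 3 passed 2-fold. At a 3-fold threshold, none did.

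**Figure D3:**
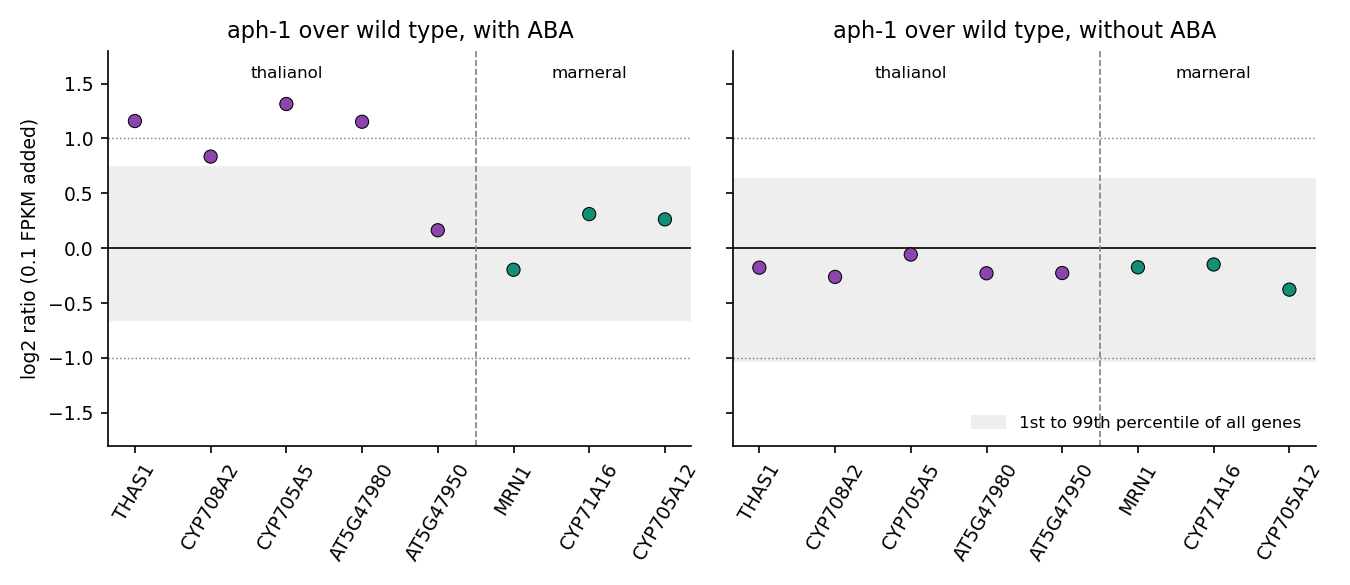
Log2 ratio of *aph-1* to the wild type for the 8 genes (0.1 FPKM added), with ABA on the left and without ABA on the right; the grey band spans the 1st to the 99th percentile of all genes and dotted lines mark 2-fold. With ABA, *THAS1*, *CYP708A2*, *CYP705A5* and AT5G47980 lie above the band (from 0.83 to 1.31), and without ABA all 8 genes lie within it.

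The difference between the genotypes in their log2 ratio of ABA-treated to untreated seedlings puts these values together. This difference, *aph-1* minus wild type, was 1.38 for AT5G47980, 1.37 for *CYP705A5*, 1.34 for *THAS1* and 1.10 for *CYP708A2*. For AT5G47950 it was 0.39, for *CYP705A12* 0.64, for *CYP71A16* 0.46 and for *MRN1* −0.02. The 4 genes past 2-fold stand beside 1.71% of all genes with a difference of at least 2-fold in this direction and 0.439% in the other, 2.15% in all. The median was 0.87 over the 8 genes and 0.04 over all genes. The 4 comparisons share groups (the ABA-treated wild type enters the ABA ratio of the wild type and the genotype ratio with ABA), so they are not independent accounts of the same genes.

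In the comparison of ABA-treated with untreated seedlings, the genes next to and between the thalianol genes had log2 ratios closer to 0 than any of the 5. Between AT5G47950 and AT5G47980 lie *RABA4C* (AT5G47960), a small GTPase gene, and AT5G47970, an aldolase-type barrel protein gene. *RABA4C* was at 6.99 FPKM in ABA-treated *aph-1* and 11.3 FPKM in untreated *aph-1*, against 7.09 FPKM in the ABA-treated wild type and 14.6 FPKM in the untreated wild type. Its log2 ratio of ABA-treated to untreated seedlings was −0.69 in *aph-1* and −1.03 in the wild type. AT5G47970 had log2 ratios of −0.32 in *aph-1* and −0.37 in the wild type. These 2 genes overlap in the RefSeq annotation and the use of strand in counting is not stated, so their values may share reads. Over these 2 genes and the 3 protein-coding genes on each outer side, 8 in all, log2 ratios lay between −0.69 and 0.88 in *aph-1* and between −1.03 and 0.99 in the wild type. Of the 8, only *RABA4C* passed 2-fold, and only in the wild type, where 24.8% of all genes did, against 22.8% in *aph-1*. The gene next to *THAS1*, AT5G48020 (an oxygenase family gene), was at 85.8 FPKM in ABA-treated *aph-1* and 46.7 FPKM in untreated *aph-1*, against 90.4 FPKM in the ABA-treated wild type and 45.5 FPKM in the untreated wild type. In the genotype comparison with ABA these 8 neighbours were between −0.13 and 0.17.

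Around the marneral cluster 2 of the 6 outer neighbours passed 2-fold after ABA, in both genotypes. Over all genes, 22.8% did so in *aph-1* and 24.8% in the wild type, so this count does not set the neighbours apart. AT5G42570, a gene of the B-cell receptor-associated 31-like family next to *CYP705A12*, was 1.65 on the log2 scale in *aph-1* and in the wild type. *ATS* (AT5G42630), a KANADI transcription factor gene of ovule development, was −1.14 in *aph-1* and −1.42 in the wild type. AT5G42567 is listed at 0 in all 4 groups, and AT5G42610 did not exceed 0.0520 FPKM in any. The noncoding RNA gene AT5G00580, between *CYP71A16* and *MRN1* in the RefSeq order, was not analysed here.

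**Figure D4:**
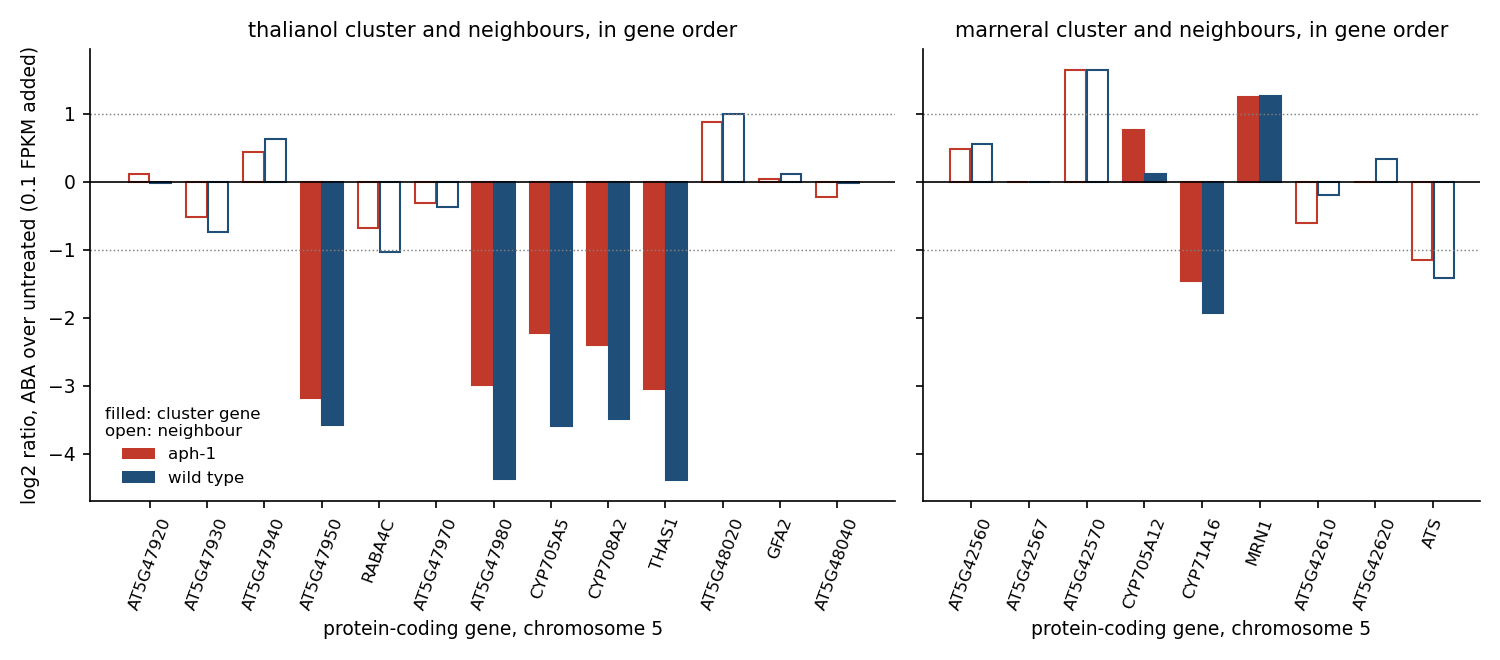
Log2 ratio of ABA-treated to untreated seedlings (0.1 FPKM added) for the cluster genes (filled bars) and their protein-coding neighbours (open bars), in gene order along chromosome 5, with *aph-1* in red and the wild type in blue; distances are not to scale. The 5 thalianol genes reach −2.22 or below in both genotypes, while *RABA4C* and AT5G47970 between them stay at −1.03 or above.

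The thalianol pathway also uses short-chain reductases encoded elsewhere in the genome. One of them, AT1G66800, was at 2.33 FPKM in ABA-treated *aph-1* and 28.5 FPKM in untreated *aph-1*, against 1.48 FPKM in the ABA-treated wild type and 32.7 FPKM in the untreated wild type. Its 12.2-fold lower level with ABA in *aph-1* and 22.2-fold lower level in the wild type stand beside 8.42-fold and 21.7-fold for *THAS1*. Among ABA-treated seedlings it was 1.58-fold higher in *aph-1*. The other, *SDR4* (AT3G29250), was at 149 FPKM in ABA-treated *aph-1* and 113 FPKM in untreated *aph-1*, against 138 FPKM in the ABA-treated wild type and 149 FPKM in the untreated wild type, within 2-fold in both genotypes.

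Upstream of the cyclases, the mevalonate pathway makes farnesyl diphosphate, which squalene synthase and squalene epoxidase turn into 2,3-oxidosqualene. Of 13 mevalonate pathway genes, 1 was higher after ABA and none lower in *aph-1* and in the wild type. That gene was *HMG1* (AT1G76490), for the reductase at the main control step, which was 2.20-fold higher with ABA in *aph-1* and 2.25-fold higher in the wild type. Of 8 squalene synthase and epoxidase genes, 3 were higher and none lower in each genotype. Squalene epoxidase gene *SQE3* (AT4G37760) was 4.34-fold higher with ABA in *aph-1* and 4.90-fold higher in the wild type. *SQS2* (AT4G34650), annotated as squalene synthase 2, was 5.48-fold higher in *aph-1* and 4.82-fold higher in the wild type. *SQS1* (AT4G34640), annotated as squalene synthase 1 and named outside the selection rule, was within 2-fold. Its log2 ratios were 0.27 in *aph-1* and 0.19 in the wild type. *SQP2* (AT5G24140), annotated as a squalene monooxygenase gene, was 6.36-fold higher in *aph-1* and 3.45-fold higher in the wild type. In the sterol branch that competes for the same precursor, 1 of 15 genes was lower after ABA in *aph-1* and 2 of 15 in the wild type, with none higher. Over all genes, 10.8% were lower and 12.0% higher after ABA in *aph-1*, and 13.0% lower and 11.8% higher in the wild type. The mevalonate and sterol counts therefore do not set those lists apart. Median log2 ratios were 0.08 in *aph-1* and 0.10 in the wild type for the mevalonate genes, 0.71 in *aph-1* and 0.70 in the wild type for the squalene genes, and −0.24 in *aph-1* and −0.43 in the wild type for the sterol genes.

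Among the 13 oxidosqualene cyclase genes, 7 reached 1 FPKM in a group. In each genotype *THAS1* and *PEN1* (AT4G15340), which encodes arabidiol synthase, were lower after ABA, *MRN1* was higher, and the other 4 were within 2-fold. *PEN1* was at 1.28 FPKM in ABA-treated *aph-1* and 2.96 FPKM in untreated *aph-1*, against 0.682 FPKM in the ABA-treated wild type and 3.34 FPKM in the untreated wild type. Cycloartenol synthase gene *CAS1* (AT2G07050), the cyclase gene of the sterol branch, was named outside the selection rule after its values were seen, and had log2 ratios of 0.15 in *aph-1* and 0.36 in the wild type. *PEN1* lies in a region of chromosome 4 with further triterpene genes for arabidiol and baruol. Of 12 genes listed there 7 reached 1 FPKM, and of these 6 were lower after ABA in *aph-1* and 7 in the wild type. Over all genes, 10.8% were lower and 12.0% higher after ABA in *aph-1*, and 13.0% lower and 11.8% higher in the wild type. The acyltransferase family gene AT4G15390 was at 5.78 FPKM in ABA-treated *aph-1* and 134 FPKM in untreated *aph-1*, against 6.82 FPKM in the ABA-treated wild type and 198 FPKM in the untreated wild type. *CYP702A5* (AT4G15393) was 19.8-fold lower with ABA in *aph-1* and 32.8-fold lower in the wild type. In the comparison of ABA-treated *aph-1* with the ABA-treated wild type, 3 of these 7 genes had log2 ratios above 0 and 4 below. The ratios lay between −0.50 and 0.82, the highest being that of *PEN1*. None passed 2-fold, where 0.878% of all genes did. In the region of *PEN3*, a tirucalladienol synthase gene, 2 of the 3 genes with at least 1 FPKM were lower after ABA and 1 was higher, in each genotype.

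**Figure D5:**
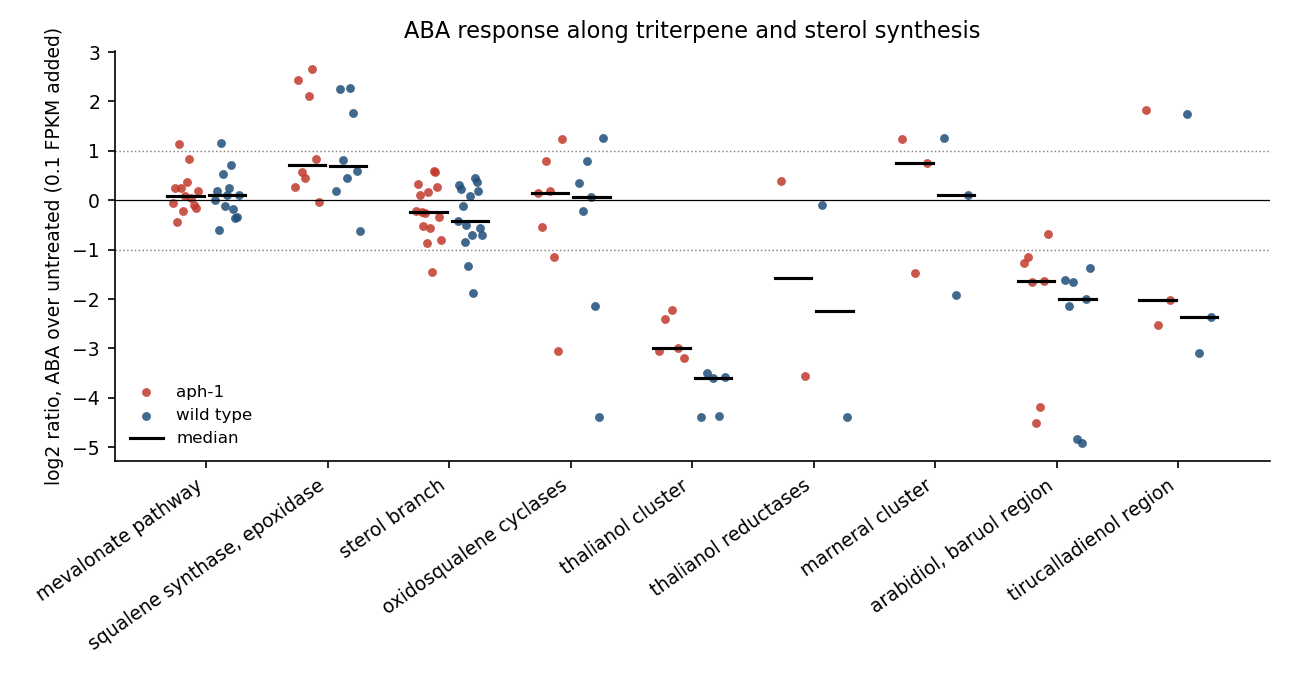
Log2 ratio of ABA-treated to untreated seedlings (0.1 FPKM added) for genes with at least 1 FPKM, by pathway list, with *aph-1* in red to the left of the wild type in blue and black lines at the medians; *THAS1*, *MRN1* and *PEN1* appear in more than 1 list. The squalene genes have medians of 0.71 in *aph-1* and 0.70 in the wild type, while the thalianol cluster has medians of −2.98 in *aph-1* and −3.60 in the wild type.

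P450 relatives of the cluster genes also differed among themselves. Of 17 further *CYP705A* genes with at least 1 FPKM, 8 were lower and 1 higher after ABA in each genotype. Their median log2 ratio was −0.62 in *aph-1* and −0.93 in the wild type. Over all genes, 10.8% were lower and 12.0% higher after ABA in *aph-1*, and 13.0% lower and 11.8% higher in the wild type. *CYP705A30* (AT3G20940) was at −1.86 in *aph-1* and −2.39 in the wild type, and *CYP705A23* (AT3G20140) at 2.18 in *aph-1* and 2.03 in the wild type. *CYP705A1* (AT4G15330) and *CYP705A4* (AT4G15380), both lower in each genotype, were also counted in the arabidiol and baruol region above. None of the 17 passed 2-fold between ABA-treated *aph-1* and the ABA-treated wild type, where 0.878% of all genes did. Reads of closely related family members may be split by the counting, which the sources used here do not describe for the FPKM values. Of the 2 other *CYP708A* genes, *CYP708A1* (AT1G55940) was higher after ABA, at 1.29 in *aph-1* and 1.70 in the wild type, and *CYP708A3* (AT1G78490) was within 2-fold.

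Several chromatin regulators have been tied to cluster expression, among them Polycomb proteins, the remodeller PICKLE and the histone variant H2A.Z. Of 17 such genes, none passed 2-fold after ABA in *aph-1*, and 1, the H2A.Z gene *HTA8* (AT2G38810), was lower in the wild type. Over all genes, 22.8% passed 2-fold after ABA in *aph-1* and 24.8% in the wild type. *HTA8* was at 15.6 FPKM in ABA-treated *aph-1* and 25.5 FPKM in untreated *aph-1*, against 13.2 FPKM in the ABA-treated wild type and 29.7 FPKM in the untreated wild type. Between the genotypes all 17 were within 2-fold, with and without ABA. Few genes of any kind passed it, 0.878% of all genes with ABA and 1.30% without, so this does not set the 17 apart.

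Whole seedlings mix roots and shoots, and in such bulk samples fewer root cells and less RNA per cell cannot be told apart. All 20 root markers and all 11 shoot markers were above 0 in all 4 groups. Of the 20 root markers, 3 were lower after ABA in *aph-1* and 5 in the wild type, with none higher, and the medians were −0.51 in *aph-1* and −0.62 in the wild type. Their summed level was 1387 FPKM in ABA-treated *aph-1* and 2283 FPKM in untreated *aph-1*, and 1334 FPKM in the ABA-treated wild type and 2599 FPKM in the untreated wild type, most of it from *PYK10* (AT3G09260), a root beta-glucosidase gene. The other 19 summed to 192 FPKM in ABA-treated *aph-1* and 301 FPKM in untreated *aph-1*, and to 169 FPKM in the ABA-treated wild type and 319.8 FPKM in the untreated wild type. *PHT1;1* (AT5G43350), a root phosphate transporter gene, had the lowest log2 ratio among them, at −2.28 in *aph-1* and −2.32 in the wild type, and 4 of the 5 thalianol genes in *aph-1* (all but *CYP705A5*, at −2.22) and 5 of 5 in the wild type had a lower one. With ABA, 18 of the 20 root markers had a higher level in *aph-1*. The median of their log2 ratios was 0.16 and the highest 0.43. Of the 11 shoot markers, 3 were lower after ABA in *aph-1* and 5 in the wild type, with medians of −0.74 in *aph-1* and −0.97 in the wild type. Beside the root and shoot marker counts stand 10.8% of all genes lower after ABA in *aph-1* and 13.0% in the wild type. With ABA all 11 also had a higher level in *aph-1*, with log2 ratios between 0.02 and 0.83 around a median of 0.22. The part of the root and shoot marker shifts in the cluster results was not tested.

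The gene whose profile over the 4 groups was most like the mean profile of the thalianol genes was AT1G24147, which carries no description in the table. Likeness was taken as the Euclidean distance between log2 levels, each centred on its own mean, over 4 values only. Its distance was 0.02, against 0.39 to 0.54 for the cluster genes themselves. It was picked as the nearest of all genes tested, so a smaller distance can come from the search alone. Its level was 0.389 FPKM in the ABA-treated wild type. The next were AT4G11210 (a dirigent-like protein gene, distance 0.13), AT4G22230 (a defensin-like protein gene, 0.17), AT4G03292 (0.20) and AT4G22214 (a defensin-like family gene, 0.21). AT4G03292 was at 0 FPKM in the ABA-treated wild type, so its profile depends on the added 0.1 FPKM. AT4G11210, for instance, was at 2.96 FPKM in ABA-treated *aph-1* and 22.9 FPKM in untreated *aph-1*, against 1.59 FPKM in the ABA-treated wild type and 26.7 FPKM in the untreated wild type. For the marneral cluster the mean profile was nearly flat and represented none of its genes, which lay 0.46 (*CYP705A12*), 1.28 (*MRN1*) and 1.70 (*CYP71A16*) from it. The nearest 5 genes were AT3G01920, AT5G49210, *TOM2B* (AT1G32370), AT5G65000 and AT4G08240, at distances of 0.02 to 0.03, and none of them passed 2-fold in any comparison.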

How the data were processed

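Total RNA of 4 groups of 3 libraries was sequenced from directional libraries. By the authors' methods, Trimmomatic was used for trimming, HISAT for mapping to TAIR10 and htseq-count (HTSeq) for counting, with strand use not stated. The values used are the FPKM values that the authors deposited, 1 per group; the unit was inferred from a deposited sheet label that names Cuffdiff, from non-integer values and from column sums, and the sources used here do not say how libraries were combined. Columns with the authors' own log2 ratios and yes or no calls of 4 comparisons were not used.

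Log2 ratios were computed with a pseudocount of 0.1 FPKM. All-gene shares cover the 20276 genes that reached 1 FPKM in a group, with a 2-fold threshold. The study states a 3-fold threshold with edgeR, which needs counts and was not run. For *aph-1* against the wild type its expression figure uses 2-fold. No test was possible with 1 value per group. Only the count of genes past the 2-fold threshold was checked, on made-up values with known ratios and no noise. Alternatives were no pseudocount, 1 FPKM, the 1 FPKM filter on members, centring on all genes or on root markers, and thresholds of 1.5-fold and 3-fold.

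The members and gene lists were chosen with earlier results of these data known. Named genes are the 8 members, the neighbours and 5 genes per cluster most alike in profile. Up to 4 per list were also named, those with the largest absolute log2 ratio of ABA-treated to untreated wild type. Gene symbols and gene order came from a RefSeq table of assembly TAIR10.1, which held 32815 of 33559 identifiers; its coordinates are not printed because the build differs. Python 3.11.15, numpy 2.4.6, pandas 2.3.3 and matplotlib 3.10.9 were used.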

Additional observations from a re-analysis of the deposited data

How the results depend on the processing

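No paired analysis was possible because the table gives 1 value per group and its columns carry no replicate numbers; for the same reason no library could be left out and no spread is known. A median was taken as moved when it shifted by over 1.5 times (0.585 on the log2 scale), and a count when it changed by over 1.5 times. For ABA-treated over untreated wild type, the members' median log2 ratio was −2.92 when ratios were centred on the root markers, against −3.53. The count of members past 2-fold between ABA-treated *aph-1* and the ABA-treated wild type was 1 with 1 FPKM added, 1 when centred on the root markers and 0 at a 3-fold threshold, against 3. For the difference between the genotypes in the ABA ratio it was 0 at 3-fold, against 4. The count after ABA in *aph-1* was 7 in all when centred on the root markers, as before, but with 5 lower and 2 higher in place of 6 lower and 1 higher. No direction turned round for any member past 2-fold under the alternatives run, but for the ratios of the 4 comparisons none could have. An added FPKM keeps the sign of such a ratio, but it need not keep the sign of a difference between 2 log2 ratios. The largest median used for centring was −0.62 on the log2 scale, which is short of 2-fold. Of the 200 recomputed log2 ratios of single members, 189 moved by less than 1.5 times, but the settings fixed most of these outcomes. The 1 FPKM filter removed no member, so its ratios could not move. Centring shifts all members of a comparison alike. The all-gene median farthest from no change was −0.05. The root-marker median passed 0.585 in size only for ABA-treated over untreated wild type, where every member moved. Only the added FPKM could move members separately, so the 189 do not measure stability.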
